A study of Mus musculus with 24 samples.

Results

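The data described here are the transcript levels of 10 genes of the p53 pathway, the regulator Trp53 itself and 9 genes known as its transcriptional targets, out of 52089 gene symbols in the table. The genes were chosen by name, as Trp53, Mdm2, Cdkn1a, Ccng1, Bax, Bbc3, Phlda3, Eda2r, Trp53inp1 and Zmat3, when earlier results of these data were already known, so their number of calls is a description and no independent evidence. Where a gene had several entries, the entry was selected on its mean level over the 24 libraries, RefSeq mRNA entries first, and this choice did not use the difference between groups.

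p53, encoded by Trp53, is a transcription factor that is kept at a low protein level by Mdm2, an E3 ubiquitin ligase that marks it for degradation. Stress that damages DNA, the nucleolus or the cell's growth signals blocks this degradation, and p53 then binds paired half-sites near genes that halt the cell cycle, promote cell death or adjust metabolism. Mdm2 is itself such a target, which closes a feedback loop. In fat tissue p53 is known for its part in senescence of precursor cells and in the inflammation of obese fat, and for restraining the differentiation of white adipocytes.

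The libraries were made from primary adipocytes of the 129SvEv genotype, whose precursors came out of the stromal vascular fraction of inguinal white adipose tissue. Per the study's methods the mice were 5 to 6 weeks old. The preadipocytes were induced for 2 days and then differentiated for 1 day with rosiglitazone, a PPARγ agonist under which white fat precursors become brite adipocytes, cells able to produce heat as brown fat does. They were then trypsinised and reverse transfected with a gapmer at 50 nM, a short antisense DNA flanked by locked nucleic acids through which RNase H cuts the paired RNA, directed either at the long noncoding RNA Ctcflos (KD) or at no target (NC). Cells were collected at 24 h or 72 h, with 6 libraries for KD and 6 for NC at either time. All groups therefore shared the strain, the rosiglitazone and the transfection, and there was no untransfected group. The study used more than 1 targeting gapmer and the labels do not say which a library received, so loss of Ctcflos and other effects of an oligonucleotide cannot be told apart here. The study describes its replicates as biological, and the labels do not name the culture or animal behind each.

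The values are RPKM, reads scaled by transcript length and by the library's mapped reads, and the recovered library totals ran from 1391832 reads in KD 24 h replicate 6 to 5423840. NC 72 h replicates 2 and 3 differed by 0.342 of the squared difference that counting noise gives, against 1.88 for the next closest of 276 pairs, and were averaged into 1 sample, so NC 72 h had n = 5. By how they departed from their group means, 16 libraries formed a larger cluster and 8 a smaller one, which took 2 libraries from every group. The targeted RNA, 1300015D01Rik, was low in all groups and had lower means in KD. Its RefSeq entry averaged 0.189 RPKM in KD 24 h against 0.741 in NC 24 h (12 and 60 reads in all). At 72 h it averaged 0.231 in KD against 1.23 in NC (17 and 91 reads). The entry that the study names transcript 1 had 8 reads in KD 24 h and 12 in NC 24 h. At 72 h it had 3 in KD and 33 in NC. For that transcript the 24 h reads are too few to show a knockdown. The defining adipocyte marker Adipoq was present and lower in KD at both times. A fold change below is the difference of log2(scaled RPKM + 0.1) with its standard error, from limma, with Benjamini-Hochberg adjustment over all entries tested. An adjusted p under 0.05 is called.

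For the members with a RefSeq promoter window, the stretch of sequence around the p53 half-site consensus, the 10-base palindrome of which p53 response elements hold a pair, is shown first because it is the feature that the list's name refers to. Windows of 300 bases, 250 before and 50 after the annotated start, were matched for 8 of the 10 members, and Trp53inp1 and Zmat3 had none in the table. An exact half-site stood in a window of 5 members, Trp53, Mdm2, Cdkn1a, Ccng1 and Bax, while 8.36% of all 32851 windows and 9.57% of all 26742 genes with a window held one. The stretches below are 80 bases from RefSeq, assembly GRCm38.p6, read 5′ to 3′ on the strand of the gene. Only exact half-sites are in capitals, and near matches to the consensus stay in lower case.
Trp53, chr11:69580249-69580328, plus strand: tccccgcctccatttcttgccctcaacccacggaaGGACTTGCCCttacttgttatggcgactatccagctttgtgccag
Mdm2, chr10:117710900-117710979, minus strand: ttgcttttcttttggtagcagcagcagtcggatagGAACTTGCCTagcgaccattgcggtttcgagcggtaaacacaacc
Cdkn1a, chr17:29090871-29090950, plus strand: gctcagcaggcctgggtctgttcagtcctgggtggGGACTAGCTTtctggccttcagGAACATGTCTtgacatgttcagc
Ccng1, chr11:40755427-40755506, minus strand: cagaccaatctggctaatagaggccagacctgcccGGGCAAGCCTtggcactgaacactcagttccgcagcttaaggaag
Bax, chr7:45467055-45467134, minus strand: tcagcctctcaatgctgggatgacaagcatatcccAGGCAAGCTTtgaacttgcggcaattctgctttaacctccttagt

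Cdkn1a had windows at different annotated starts. In the window chr17:29090729-29091028 both exact half-sites lay 12 bases apart and began 73 and 51 bases before that start. The second was followed directly, with no base between, by a near match. That near match departs from the consensus only at its first base and so stays in lower case. The Cdkn1a window at the start further downstream, chr17:29093519-29093818, held no exact half-site. A pair with at most 13 bases between occurred in 24 of the 32851 windows. The half-sites began 75 bases before the start in Trp53, 186 in Mdm2, 185 in Ccng1 and 201 in Bax. The windows of Bbc3, Phlda3 and Eda2r held no exact match, which says only that these letters were not in those windows. A match is not a measured binding site.

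Of the 9 members that could be tested, 6 were higher in KD than in NC at 24 h and again at 72 h, and none was called lower. The 6 were Trp53, Mdm2, Cdkn1a, Ccng1, Eda2r and Trp53inp1 at both times. Their increases at 24 h ran from 0.45 log2 for Cdkn1a to 1.40 for Trp53inp1, and at 72 h from 0.45 for Ccng1 to 1.57 for Eda2r. Among all 11103 genes tested at 24 h, 11.2% were called higher, and of the 11500 at 72 h, 10.3% were. Called lower were 1287 of them at 24 h and 1492 at 72 h. The members' median log2 fold change was 0.57 at 24 h and 0.83 at 72 h, beside -0.01 at each time over all genes tested. Eda2r at both times and Bax at 72 h reached the minimum of reads in enough samples only through the KD group, and Bbc3 did not reach it. Without those entries the median was 0.51 over 8 members at 24 h and 0.64 over 7 at 72 h, with 5 called higher at each time. At 72 h the deposited values without scaling had a median log2 fold change of 0.25 over all entries, with 80.9% of the called entries higher against 46.2% after scaling. Changes at 72 h are therefore relative to that shift, and without scaling Bax and Phlda3 were called as well.

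**Figure D1:**
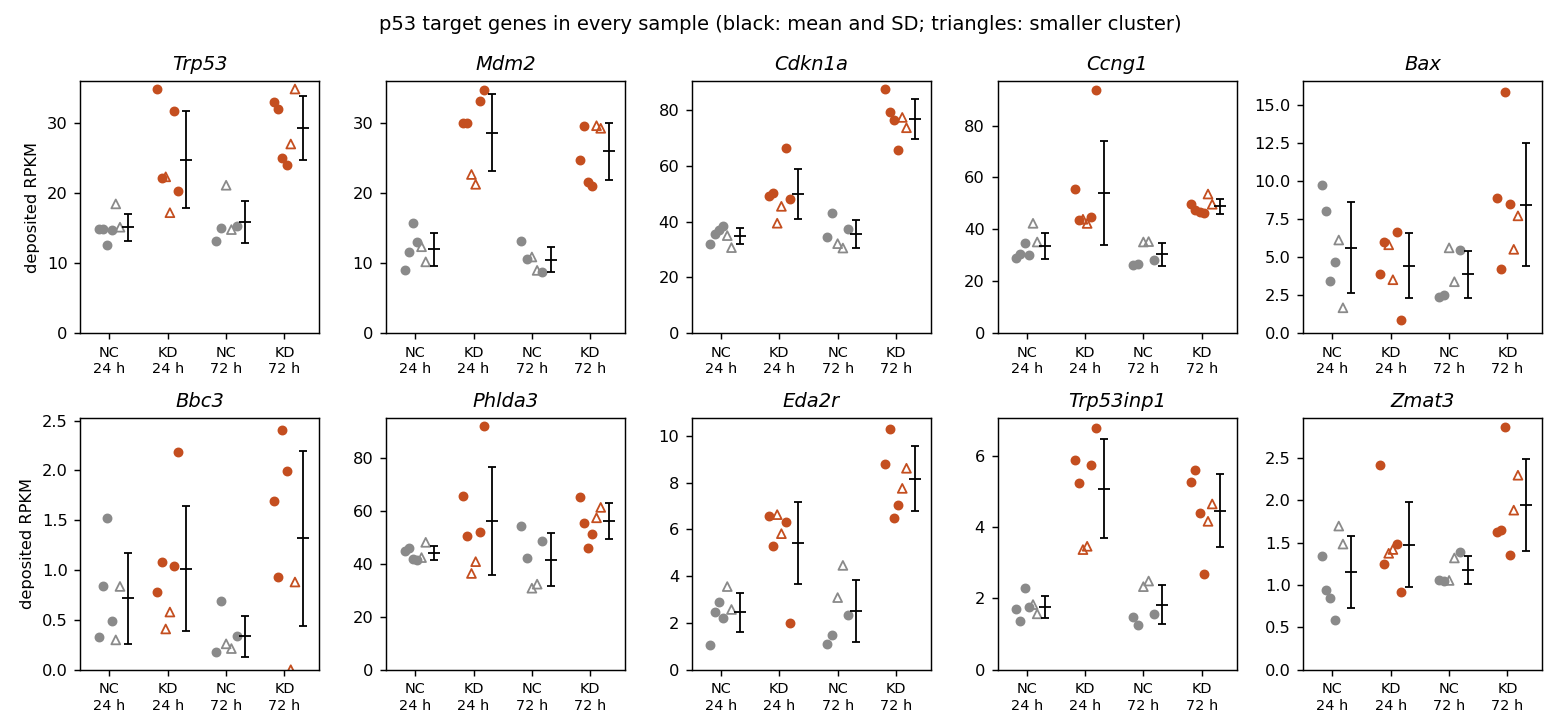
Deposited RPKM of each member in every sample (points, 6 per group and 5 for NC 72 h, on a linear axis from 0), with the mean and SD in black; open triangles mark libraries of the smaller cluster. In Mdm2, Cdkn1a and Trp53inp1 every KD sample lies above every NC sample at both times, whereas the groups overlap in Bax, Bbc3, Phlda3 and Zmat3.

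Among the regulators, Trp53 transcript (NM_011640) was higher in KD. At 24 h it ranged from 17.2 to 34.9 RPKM in KD (median 22.2) and from 12.5 to 18.5 in NC (median 14.9). At 72 h it ranged from 24.0 to 34.9 in KD (median 29.6), and the NC samples held 13.2, 14.8, 15.0, 15.3 and 21.1. The groups touched at 24 h, where 5 of 6 KD samples exceeded every NC sample, and were separate at 72 h. The ranges here and below are deposited RPKM before scaling, so separations at 72 h include the shift described above. The log2 fold change was 0.62 ± 0.17 at 24 h (limma adjusted p = 0.0182) and 0.64 ± 0.13 at 72 h (limma adjusted p = 0.00375). Trp53 spans chr11:69580359-69591873 on the plus strand of GRCm38, the build of all gene positions given here.

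Mdm2 (NM_010786, chr10:117688875-117710758, minus strand), the ligase that limits p53, rose about as much at both times. KD 24 h ranged from 21.2 to 34.7 RPKM (median 29.9) against 8.96 to 15.7 in NC 24 h (median 11.9). KD 72 h ranged from 20.97 to 29.6 (median 26.9), with NC samples at 8.70, 8.94, 10.6, 10.8 and 13.2. No KD sample came near an NC sample at either time. Its log2 fold changes were 1.20 ± 0.15 (limma adjusted p = 0.000216) and 1.05 ± 0.14 (limma adjusted p = 0.000133), that is 2.29-fold and 2.08-fold. Mdm2 was called under all 22 alternatives at each time, with values between 0.98 and 1.28 log2 at 24 h and between 0.95 and 1.30 at 72 h.

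Of the members that act on the cell cycle, Cdkn1a (NM_007669, chr17:29090976-29100727, plus strand) encodes p21, an inhibitor of cyclin-dependent kinases that arrests cells before DNA replication. It ranged from 39.4 to 66.4 RPKM in KD 24 h (median 48.6) and from 30.7 to 38.6 in NC 24 h (median 35.2). In KD 72 h the range was 65.6 to 87.7 (median 77.1), while the NC samples held 30.5, 32.1, 34.4, 37.5 and 43.2. Before scaling, all KD samples lay above all NC samples, narrowly at 24 h and widely at 72 h. The log2 fold change was 0.45 ± 0.12 at 24 h (limma adjusted p = 0.0183) and 0.86 ± 0.12 at 72 h (limma adjusted p = 0.000175). The difference between these effects, 0.43 ± 0.17 log2, was not called (limma adjusted p = 0.304). AC167363.2 overlaps Cdkn1a on the other strand, and the handling of strand is not given in the sources used here, so reads of the pair cannot be told apart.

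Ccng1 (NM_009831, chr11:40748552-40755311, minus strand) encodes cyclin G1, a partner of protein phosphatase 2A that feeds back on Mdm2. Its level was 42.3 to 93.8 RPKM in KD 24 h (median 44.2) and 28.8 to 42.3 in NC 24 h (median 32.6), so that the highest NC sample and the lowest KD sample almost coincided. At 72 h KD ran from 46.2 to 53.6 (median 48.5), all above the NC samples at 26.2, 26.7, 28.2, 35.1 and 35.2. The log2 fold changes were 0.57 ± 0.17 (limma adjusted p = 0.0233) and 0.45 ± 0.10 (limma adjusted p = 0.00724). The highest value belonged to KD 24 h replicate 6, the library with the fewest reads. Without it the 24 h effect was 0.42 log2 and still called (limma adjusted p = 0.0153).

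Among the genes tied to cell death, Eda2r (NM_001161433, chrX:97333840-97377216, minus strand), a receptor of the tumour necrosis factor family that binds ectodysplasin A2, had the largest increase of the members at 72 h. At 24 h KD samples ranged from 1.99 to 6.63 RPKM (median 6.05) and NC samples from 1.06 to 3.55 (median 2.52). At 72 h KD held 6.48 to 10.3 (median 8.18), and NC held 1.11, 1.5, 2.34, 3.08 and 4.46. A single KD sample, again replicate 6 with 6 reads on this gene, fell inside the NC range at 24 h, and at 72 h the groups were apart. The log2 fold change was 1.04 ± 0.34 at 24 h (limma adjusted p = 0.0389) and 1.57 ± 0.29 at 72 h (limma adjusted p = 0.00171). The 24 h call was lost under 14 of 22 alternatives, including 10 of the 12 that left out 1 sample, with adjusted p up to 0.111.

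Bax (NM_007527, chr7:45461697-45466898, minus strand), the pore-forming protein of the mitochondrial outer membrane, did not pass the test at either time. It was measured on few reads, from 1 to 55 in a sample. KD 24 h ranged from 0.827 to 6.65 RPKM (median 4.83) and NC 24 h from 1.66 to 9.77 (median 5.40). In KD 72 h the range was 4.22 to 15.8 (median 8.11), with NC samples at 2.38, 2.5, 3.38, 5.44 and 5.61. The groups overlapped at both times, and at 72 h 4 of 6 KD samples exceeded every NC sample. The log2 difference was -0.42 ± 0.50 at 24 h (limma adjusted p = 0.567) and 0.83 ± 0.33 at 72 h (limma adjusted p = 0.0855). Gm45808 overlaps Bax on the same strand.

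Bbc3 (NM_133234, chr7:16308393-16318205, plus strand) encodes PUMA, a protein with only the BH3 domain that sets Bax free, and had at most 19 reads in any sample. KD 24 h ranged from 0.409 to 2.18 RPKM (median 0.913) and NC 24 h from 0.299 to 1.52 (median 0.660). KD 72 h ranged from 0 to 2.41 (median 1.31) and the NC samples held 0.174, 0.212, 0.260, 0.342 and 0.689. One KD 72 h sample had no read, where 3 reads in the median library are worth 0.385 RPKM, while the other 5 lay above every NC sample. The two-sided exact permutation test on deposited RPKM gave p = 0.398 at 24 h and p = 0.0519 at 72 h, unadjusted.

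Phlda3 (NM_013750, chr1:135766119-135769136, plus strand), a small protein that keeps the kinase Akt from the membrane, had the highest level per kilobase of the members in NC 24 h, though Ccng1 and Cdkn1a had more reads there (3069 and 1722 in all, against 1683). KD 24 h ran from 36.4 to 92.1 RPKM (median 51.1) and NC 24 h from 41.3 to 48.1 (median 43.7). KD 72 h ran from 46.1 to 65.3 (median 56.4), and NC held 30.8, 32.3, 42.0, 48.8 and 54.2. The groups overlapped at both times, and the log2 differences of 0.22 ± 0.16 and 0.21 ± 0.15 were not called (limma adjusted p = 0.317 and 0.357).

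Of the stress response genes, Trp53inp1 (NM_021897, chr4:11156431-11174379, plus strand), a nuclear cofactor that promotes the death-inducing activity of p53 and also takes part in autophagy, had the largest increase at 24 h. Its KD 24 h samples ranged from 3.37 to 6.80 RPKM (median 5.49), and NC 24 h from 1.37 to 2.28 (median 1.74). KD 72 h ranged from 2.69 to 5.61 (median 4.53), with NC samples at 1.26, 1.47, 1.56, 2.33 and 2.49. Before scaling, the groups were separate at both times, though the lowest KD 72 h sample sat close to the highest NC sample. The log2 fold changes were 1.40 ± 0.20 (limma adjusted p = 0.000584) and 1.02 ± 0.23 (limma adjusted p = 0.00691).

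Zmat3 (NM_009517, chr3:32334792-32366014, minus strand), an RNA-binding zinc finger protein that regulates splicing and transcript stability, was low, with KD 24 h at 0.923 to 2.42 RPKM (median 1.40) and NC 24 h at 0.584 to 1.70 (median 1.15). KD 72 h held 1.36 to 2.86 (median 1.77), and NC held 1.05, 1.05, 1.06, 1.32 and 1.39. At 72 h 5 of 6 KD samples exceeded every NC sample. The log2 differences of 0.31 ± 0.29 at 24 h and 0.42 ± 0.23 at 72 h were not called (limma adjusted p = 0.465 and 0.208).

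**Figure D2:**
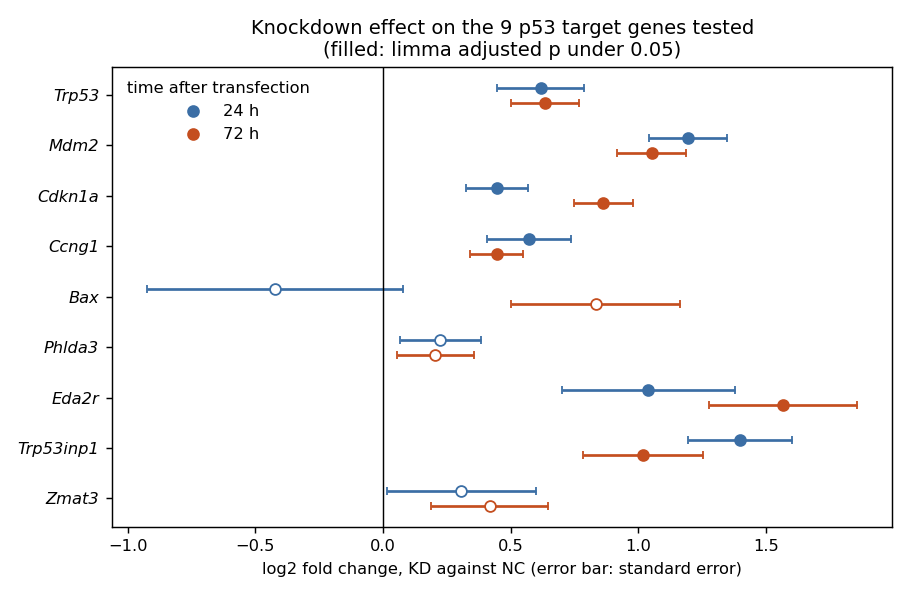
Log2 fold change of KD against NC for the 9 members tested, at 24 h (blue) and 72 h (orange), with standard errors; filled points have a limma adjusted p under 0.05. The filled points of Trp53, Mdm2, Cdkn1a, Ccng1, Eda2r and Trp53inp1 lie between 0.45 and 1.57.

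Levels differed widely between members. In NC 24 h the order per kilobase was Phlda3 (44.1 ± 2.70 RPKM, SD, n = 6), Cdkn1a (34.8 ± 2.96), Ccng1 (33.6 ± 4.97), Trp53 (15.1 ± 1.91), Mdm2 (11.9 ± 2.34), Bax (5.63 ± 2.99), Eda2r (2.46 ± 0.830), Trp53inp1 (1.75 ± 0.307), Zmat3 (1.15 ± 0.425) and Bbc3 (0.718 ± 0.458). Cdkn1a and Ccng1, Trp53 and Mdm2, and each neighbouring pair from Bax to Bbc3 had overlapping ranges of mean ± SD. Libraries of this kind sequence the 3′ ends of transcripts, so reads do not grow with length and the order between genes depends on the entry's length, which ran here from 869 bases for Bax to 7784 for Zmat3. The changes between groups depend on length through the 0.1 RPKM added before the logarithm. Length also acts through the RPKM level, which entered the trimming for the scaling factors and the trended variance behind standard errors and calls.

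Counting overlap alone, 3 members at 24 h (Mdm2, Cdkn1a, Trp53inp1) and 6 at 72 h (those and Trp53, Ccng1, Eda2r) had all KD samples above all NC samples in deposited RPKM, where 5.53% and 14.4% of all genes tested did. The members had 56 further entries, which share reads with the chosen ones. Of these, 32 were tested at 24 h and 22 of them were called higher, and at 72 h 24 of 34 were. None was called lower, and among all entries 11.1% and 10.4% were called higher. With the chosen entry included, 3 of 7 Cdkn1a entries were called at 24 h and 2 of 5 tested Eda2r entries at 72 h. For Mdm2, 8 of 9 tested entries were called at 24 h and 6 of 8 at 72 h, where the tested entries ran from 0.43 to 1.08 log2.

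The knockdown effect did not pass a test of difference between the times for any of the 10 members, against 0.237% of genes called in that comparison. The estimates ran from -0.37 ± 0.30 log2 for Trp53inp1 to 1.27 ± 0.66 for Bax (limma adjusted p = 0.667 and 0.46). In the control cells none of the 9 members tested was called between 72 h and 24 h, where 9.23% of genes were, and their estimates ran from -0.39 ± 0.39 log2 for Bax to 0.12 ± 0.27 for Zmat3. A p that misses the threshold does not show that the levels were equal.

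Within the library clusters the direction of the 6 called members was the same. In the larger cluster, Trp53 changed by 0.79 log2 at 24 h and 0.75 at 72 h, Mdm2 by 1.28 and 0.95, Cdkn1a by 0.46 and 0.80, Ccng1 by 0.75 and 0.60, Eda2r by 1.03 and 2.07, and Trp53inp1 by 1.59 and 1.34. In the smaller cluster, with 2 samples a group, the values were 0.24 and 0.46 for Trp53, 0.98 and 1.24 for Mdm2, 0.39 and 0.94 for Cdkn1a, 0.18 and 0.22 for Ccng1, 1.03 and 0.79 for Eda2r, and 0.99 and 0.52 for Trp53inp1. Mdm2 was called in both clusters at both times. In the larger cluster at 72 h Bbc3 reached the read minimum through its KD samples alone, at 0.928 to 2.41 RPKM against 0.174, 0.342 and 0.689 in NC, and was called at 1.77 log2 (limma adjusted p = 0.0170).

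**Figure D3:**
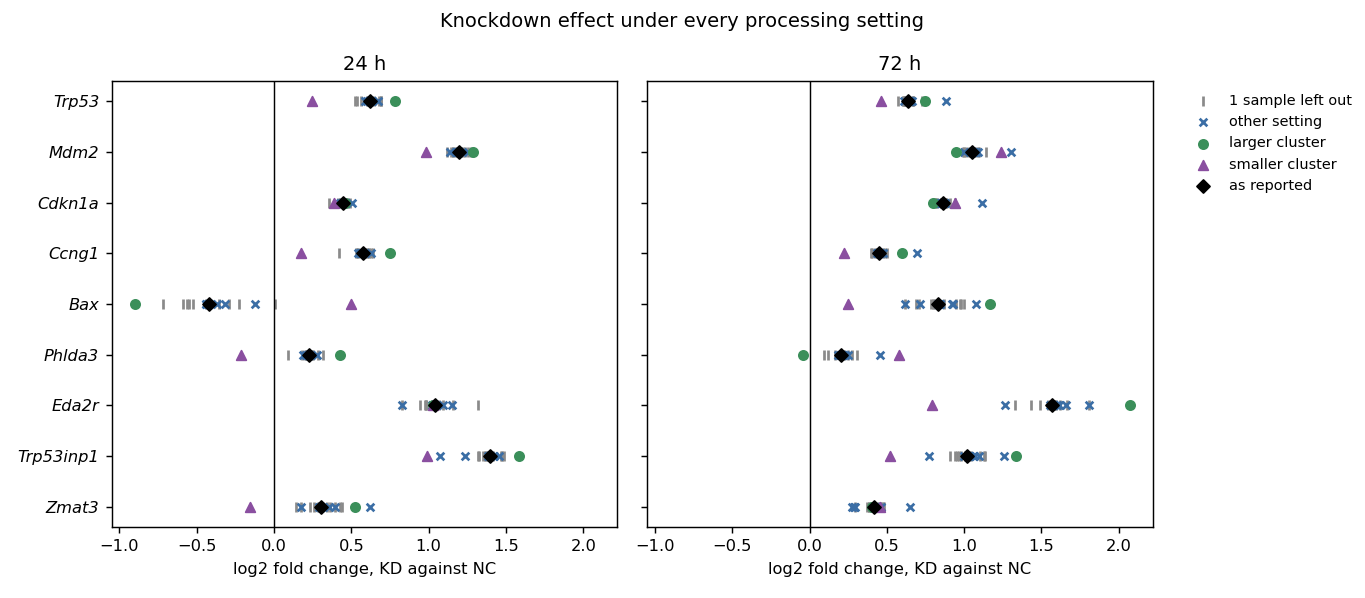
Log2 fold change of KD against NC for the 9 tested members under every setting (black diamond: as reported; grey bars: 1 sample left out; green and purple: within the larger and smaller cluster; blue: other settings). The 6 called members stay above 0 under each setting at both times, and Bax at 24 h falls on both sides of 0.

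Other transcriptional targets of p53 were called in the higher direction only, in part among genes that reached the read minimum only through KD. Of 30 such genes in the table, 25 were tested at 24 h with 7 called higher and 0 lower, and 26 at 72 h with 9 higher and 0 lower, with median log2 fold changes of 0.44 and 0.54. Of those tested, 6 at 24 h and 8 at 72 h entered only through KD, among them 2 and 3 of the called genes (Epha2 and Sesn2 at 24 h, and Epha2, Plk3 and Psrc1 at 72 h). Without them 5 of 19 were called higher at 24 h and 6 of 18 at 72 h, with medians of 0.39 and 0.54. For comparison, 11.2% and 10.3% of all genes tested were called higher, and 1287 of 11103 and 1492 of 11500 lower. The median over all genes was -0.01 at each time. Epha2, an ephrin receptor kinase, had 174 reads in all of KD 24 h against 6 in NC 24 h, and 117 against 9 at 72 h. Its fitted log2 fold changes depend on the added 0.1 RPKM, and were 3.65 ± 0.38 log2 at 24 h and 2.82 ± 0.40 at 72 h (limma adjusted p = 6.08e-05 and 0.000262). Gdf15, a secreted stress hormone, rose by 1.93 ± 0.22 and 0.60 ± 0.16 (limma adjusted p = 0.00012 and 0.0134), and Plk2, a polo-like kinase, by 1.31 ± 0.20 and 0.93 ± 0.21 (limma adjusted p = 0.000779 and 0.00634). Plk3, a related kinase, was called at 72 h at 1.73 ± 0.31 (limma adjusted p = 0.00127) and had 0.70 ± 0.28 at 24 h (limma adjusted p = 0.0797). These genes also respond to other signals, and no p53 protein or binding was measured.

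Regulators and relatives of p53 were called in both directions. Of 12 tested at 24 h, 5 were called higher and 1 lower, and of 13 at 72 h, 4 higher and 1 lower. Over all genes tested, 11.2% and 10.3% were called higher, and 1287 of 11103 and 1492 of 11500 lower. The lower call at each time was no more than that share would give. Daxx, a nuclear partner of Mdm2, was higher by 0.71 ± 0.20 and 0.77 ± 0.14 log2 (limma adjusted p = 0.0212 and 0.00168), and Rchy1, another ligase for p53, by 0.79 ± 0.26 and 0.65 ± 0.20 (limma adjusted p = 0.0374 and 0.0294). Ppm1d, the phosphatase that switches p53 off, was called at 72 h, where it entered only through KD, at 0.84 ± 0.27 (limma adjusted p = 0.0376), with 0.58 ± 0.41 at 24 h. Rpl5, a ribosomal protein that can bind Mdm2, was higher at 24 h by 0.53 ± 0.16 and lower at 72 h, at -0.78 ± 0.17 (limma adjusted p = 0.0261 and 0.0047), and its reads can be shared with pseudogenes. Mdm4, the close relative of Mdm2, was not called at either time, at -0.12 ± 0.25 and 0.57 ± 0.27. Cdkn2a, Trp63 and Trp73 were not tested: Cdkn2a had at most 4 reads in a sample, and Trp63 and Trp73 were listed at 0 in most samples.

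Genes that p21 lowers through the DREAM repressor complex, which are genes of the dividing cell, were not called lower in KD. Of 15 tested at 24 h, 3 were called higher and 0 lower, and of 16 at 72 h, 1 was higher and 0 were lower in limma. The shares over all genes tested were 11.2% and 10.3% higher, and 1287 of 11103 and 1492 of 11500 lower. A list this short would hold few lower calls at that share. Mcm2, a subunit of the replicative helicase, was higher by 0.75 ± 0.26 and 0.99 ± 0.25 log2 (limma adjusted p = 0.0472 and 0.0111), Cdc20 by 0.68 ± 0.21 and Ccna2 by 0.47 ± 0.16 at 24 h. The list's median log2 fold change was 0.17 at 24 h and 0.06 at 72 h. Among 5 other cyclin-dependent kinase inhibitors, Cdkn2b was higher at both times, by 0.94 ± 0.23 and 0.74 ± 0.13, and Cdkn1c was called at 72 h, by 2.13 ± 0.33 (limma adjusted p = 0.000548). Cdkn2c was lower at 24 h, at -0.44 ± 0.13 (limma adjusted p = 0.0265).

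**Figure D4:**
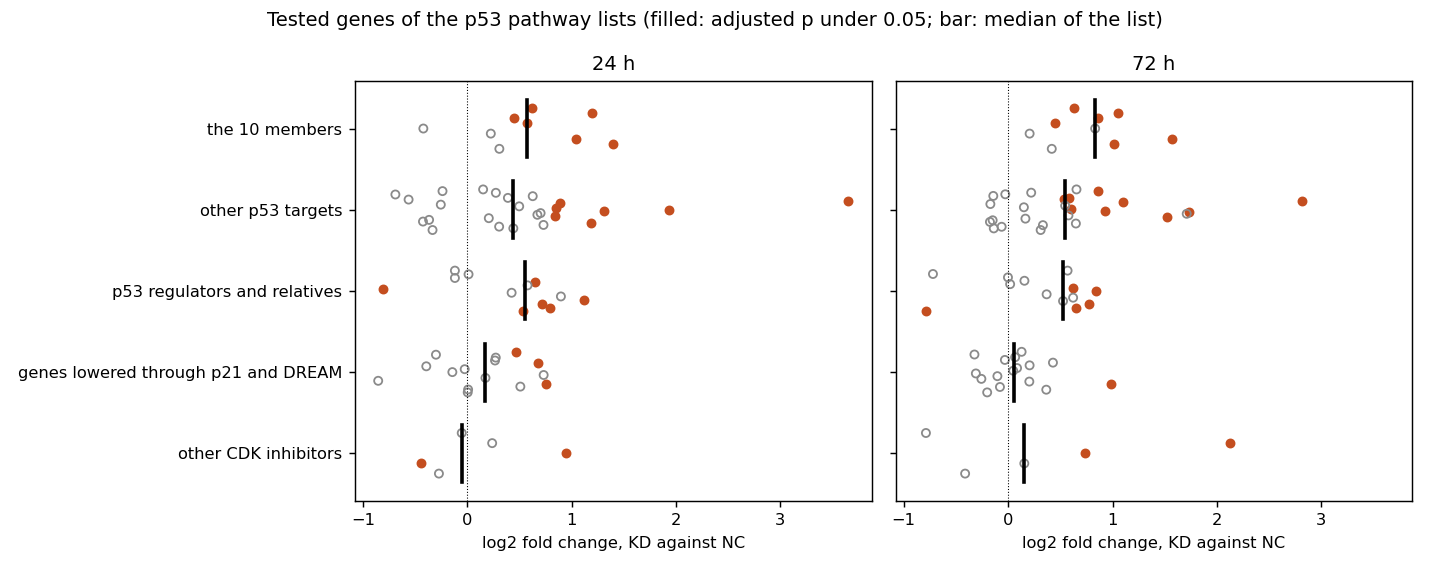
Log2 fold change of KD against NC at 24 h and 72 h for every tested gene of 5 gene lists; filled points have a limma adjusted p under 0.05 and the bar is the list's median. Called members and called other targets all lie to the right of 0, and the list of genes lowered through p21 has its median near 0.

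Some cell type markers differed between KD and NC as well. The summed level of 6 adipocyte markers was 35337 to 53290 RPKM in KD 24 h against 46476 to 49940 in NC 24 h, and 27333 to 40213 in KD 72 h against 33197 to 43196 in NC 72 h. Fabp4, at a mean of 36825 RPKM over the 24 libraries, made up most of these sums. Adipoq was lower at both times, at -0.55 ± 0.15 and -0.96 ± 0.15 log2, Fabp4 only at 72 h and Lipe only at 24 h. Plin1 (-0.16 ± 0.14 and -0.45 ± 0.20) and Cidec (-0.20 ± 0.19 and 0.11 ± 0.12) were not called at either time. The 6 preadipocyte markers summed to 364 to 838 RPKM in KD 24 h and 401 to 983 in NC 24 h, and to 782 to 936 and 357 to 933 at 72 h, and none of the 5 tested was called at 24 h. At 72 h Pdgfra (-0.30 ± 0.20 log2), Thy1 (-0.04 ± 0.15) and Ly6a (0.27 ± 0.21) were not called, while Cd34, which entered only through KD with 20 reads in all of NC, was called higher at 2.02 ± 0.36. The 6 macrophage markers summed to at most 28.8 RPKM in any sample, where C1qa and Ptprc were at 0 in some samples of every group, with Csf1r higher at both times, at 1.22 ± 0.27 and 1.23 ± 0.25, and Lyz2 lower at 72 h. Csf1r alone stood at 0.856 to 9.11 RPKM over all samples. The 5 endothelial markers summed to at most 1.46 RPKM and the 4 mesothelial ones to at most 11.5, with Upk3b at 0 in every sample. Of the adipocyte markers, Lep was at 0 in every KD sample and at most 0.367 RPKM in NC. The part of a changed cell make-up in the members' increases was not tested, and in bulk samples more RNA per cell and more cells that hold it cannot be told apart.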

How the data were processed

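Barcoded bulk libraries of transcript 3′ ends were sequenced. Per the authors' methods, reads were aligned to the NCBI reference sequences, and the differential test was run in the Genomatix suite. The authors deposited RPKM, reads scaled by transcript length and mapped reads, for 168326 transcript entries. The genome build, version and strand setting for these libraries are not given in the sources used here. 0 columns were left out. No count table was used, so limma took the place of the count test of the authors.

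RPKM steps gave entry lengths for 99.4% of the 101839 entries with at least 6 values above 0, library totals and whole reads. NC 72 h replicate 6 was left out of that step, and 82.3% of its values at up to 20 reads came out whole within 0.1 of a read. Entries were tested at or above the RPKM worth 10 reads in the median library (3945867 reads) in as many samples as the smaller group, and 15 reads in total. RPKM were scaled by trimmed means (30% of log ratios and 5% of levels trimmed at each end), and log2(RPKM + 0.1) was fitted with limma 3.58.1 in R 4.3.3, trended, with Benjamini-Hochberg adjustment at 0.05. The script was run on simulated data. At the setting with wider spread and fewer reads, most entries given a moderate change were not called. A change that was not called here may therefore still be present. All members are named, with up to 4 called genes of smallest unadjusted p from each other list and Mdm4, Cdkn2a, Trp63 and Trp73. Members and lists were chosen with earlier results of these data known. Same-numbered samples did not deviate together (mean correlation -0.11 at 24 h and 0.04 at 72 h), so replicate numbers were not used as pairs. Alternatives changed the pseudocount to 1, the filter, the scaling, the entry, the test (limma voom on recovered reads), the merged replicates, the cluster and single samples. Gene positions are from GENCODE M21 on GRCm38. The ± values are limma standard errors for log2 fold changes and SDs over samples for RPKM.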

Additional observations from a re-analysis of the deposited data

Results flagged for a closer look

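Of 40 member and group combinations examined for a sample far from the rest, 3 had one, where chance gives about 1 in 20. Ccng1 stood at 93.8 RPKM and Eda2r at 1.99 RPKM in KD 24 h replicate 6, the library with the fewest reads (1391832), and Trp53 stood at 21.1 RPKM in NC 72 h replicate 4. Without KD 24 h replicate 6 the log2 fold changes at 24 h were 0.42 for Ccng1 and 1.32 for Eda2r, and without NC 72 h replicate 4 that of Trp53 at 72 h was 0.73, all called.

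For 3 genes that are no members the knockdown effect differed between the times by the interaction test. The effect at 72 h minus that at 24 h was 1.90 log2 for Cdkn1c (limma adjusted p = 0.0342), -1.30 for Rpl5 (limma adjusted p = 0.0114) and -1.32 for Gdf15, just under the threshold of 0.05.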

How the results depend on the processing

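Trp53, Mdm2, Cdkn1a, Ccng1, Eda2r and Trp53inp1 kept their direction under all 22 alternatives at each time. The number of members called was 1 at 24 h and 3 at 72 h within the smaller cluster, and otherwise 4 to 6 and 5 to 8. Leaving out 1 sample gave 4 to 6 at 24 h and 6 to 7 at 72 h. Ccng1 lost its 24 h call without NC 24 h replicate 1, 2 or 4 (limma adjusted p up to 0.0543), and Cdkn1a without the filter and within the larger cluster (limma adjusted p = 0.0525 and 0.0563). Bax at 24 h ran from -0.72 to 0.00856 log2 with 1 sample left out, the latter without KD 24 h replicate 6, and turned to 0.50 within the smaller cluster. Phlda3 turned to -0.21 at 24 h within the smaller cluster and to -0.0416 at 72 h within the larger, but was called at 72 h within the smaller, at 0.58 (limma adjusted p = 0.0402), and Zmat3 to -0.16 at 24 h within the smaller.

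Of entries called over the whole table, 1 entry per gene gave 2609 of 11103 at 24 h, 2799 of 11500 at 72 h, 44 for the interaction and 1074 for control time, against 11810, 12157, 114 and 4819. The smaller cluster alone gave 1562, 5840 and, for the interaction, 1852. The interaction further gave 238 with a pseudocount of 1, 772 on the deposited scale, 181 with NC 72 h replicates 2 and 3 apart, 868 within the larger cluster and 405 with the cluster as a covariate. Leaving out 1 sample gave 9051 to 14156 at 24 h, 9732 to 12058 at 72 h, 52 to 174 for the interaction and 3687 to 4722 for control time, which had 7234 with the cluster as a covariate. Called interaction entries were 62.3% higher as reported and 96.1% higher on the deposited scale.

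With the replicate block, 5 members were called at each time: Eda2r lost its call at 24 h (limma adjusted p = 0.0574) and Trp53inp1 at 72 h (limma adjusted p = 0.0531). It gave 8722 entries at 24 h, 8234 at 72 h, 27 for the interaction and 2916 for control time. Few reads limit Bax, Bbc3 and Eda2r, and differences there may not be detectable at this depth.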
